A study of Mus musculus with 4 samples.

Results

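The *Tomm* and *Timm* genes encode the translocases of the outer (TOM) and inner (TIM) mitochondrial membranes, through which proteins made in the cytosol enter the mitochondrion. Members were all genes whose symbol began with *Tomm* or *Timm* followed by a digit, without pseudogene symbols, and 26 of the 28585 genes listed met this rule. They comprised 11 *Tomm* and 15 *Timm* genes, of which 1 (*Tomm6os*) is annotated as an antisense transcript and the others as protein coding. Bulk RNA sequencing had been performed on PMN-MDSCs, neutrophil-like suppressor cells, isolated from the spleens of C57BL/6J pups on postnatal day 7, with 300000 cells per library. The 2 Dhps cko libraries came from *Dhps* fl/fl *Lysm* cre pups, in which Cre made from the *Lysm* (*Lyz2*) locus acts in neutrophils, monocytes and macrophages, and the 2 Dhps flox libraries came from *Dhps* fl/fl littermates. Both genotypes thus carry the floxed *Dhps* allele, and the labels give no treatment. DHPS carries out the first step of hypusination, a modification of the translation factor eIF5A made from spermidine, and the comparison asked whether transcripts of the import machinery differ when it is deleted in myeloid cells. The labels do not say whether the libraries came from separate animals or pools, so all p-values measure only the spread between these 4 samples. Sex of the pups is not given in the labels either, and sex-linked genes differed between the genotypes, as described below.

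Almost all mitochondrial proteins are encoded in the nucleus and imported after or during translation. Receptors of the TOM complex recognize precursors at the surface and pass them to the Tom40 channel. From there, precursors with a cleavable presequence take the TIM23 complex and its ATP-driven motor into the matrix, whereas carrier proteins are escorted across the intermembrane space by small Tim chaperones and inserted by the TIM22 complex. Neutrophils rely largely on glycolysis and hold few mitochondria, whose membrane potential, the force that drives import through both inner-membrane routes, is nevertheless maintained.

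The deposited values were FPKM, in which the fragments of a gene are divided by transcript length and by the mapped fragments of the library. FPKM summed to between 304281 and 319286 per library, and 10611 to 10729 genes reached 1 FPKM. Spacing between the lowest values gave an approximate depth of 29300000 to 32200000 fragments per library. Pearson's r of log2 values over 10629 genes was 0.987 between the Dhps cko replicates, 0.979 between the Dhps flox replicates and 0.978 to 0.983 across genotypes. The value for the Dhps flox replicates thus lay within the range across genotypes. *Dhps* itself was at 2.38 and 2.59 FPKM in Dhps cko and at 3.57 and 3.11 FPKM in Dhps flox. Its level was lower in both Dhps cko libraries, at 74.4% of the Dhps flox mean. The log2 fold change of -0.41 (SE 0.13, 95% confidence interval -0.75 to -0.07) did not pass the adjusted threshold (limma, unadjusted p = 0.026, adjusted p = 0.63). Which exons are floxed was not given in the sources used here, and gene-level FPKM also hold fragments of exons outside the deletion. Neutrophil markers, with *Ngp* the most abundant, summed to 79163 and 81660 FPKM in Dhps cko and to 78919 and 74475 FPKM in Dhps flox, higher in both Dhps cko libraries, with 1 of 12 genes higher at an unadjusted limma p under 0.05 (4.72% of all genes tested). Markers of other cells had much lower sums, several of them also higher in both Dhps cko libraries. These were the sums of B cell markers, led by *Ighm* (64.9 and 67.7 against 41.5 and 50.8 FPKM, 5 of 8 genes higher at that threshold), of T cell markers, led by *Trbc2* (18.5 and 15.0 against 11.9 and 8.01 FPKM, 3 of 8), of monocyte and macrophage markers, led by *Cd68* (209 and 209 against 169 and 168 FPKM, 5 of 10), and of eosinophil markers, led by *Siglecf* (12.6 and 10.95 against 8.96 and 8.95 FPKM, 1 of 6). Sums overlapped for erythroid markers, led by *Hbb-bs* (609 to 917 FPKM), early neutrophil markers, led by *Ms4a3* (81.3 and 54.5 against 46.3 and 56.5 FPKM, all 5 genes with a log2 fold change above 0, median 0.55, and 0 at that threshold), and platelet markers, led by *Pf4* (1.66 to 4.37 FPKM), and cell cycle genes, led by *Mki67*, were lower in both Dhps cko libraries (236 and 216 against 238 and 247 FPKM, 0 of 6 genes at that threshold, median log2 fold change -0.03). No marker of these lists was at 0 in all libraries, and their part in the results on import genes was not tested. In bulk RNA, fewer cells of a type cannot be told apart from less RNA per cell.

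No TOM or TIM gene passed the adjusted threshold for a difference between the genotypes. Of the 26 members, 24 had a mean of at least 0.1 FPKM and were tested, and 0 of 24 had an adjusted p under 0.05 in limma (lowest adjusted p = 0.65), where 1 gene of 17953, or 0.00557%, did so over the whole transcriptome. At an unadjusted p under 0.05, 1 of 24 members (*Tomm22*) was called, against 7.0% of all genes tested (4.72% higher and 2.28% lower in Dhps cko). Log2 fold changes of members, always Dhps cko minus Dhps flox on log2(FPKM + 0.1), lay between -0.26 and 0.28 with a median of 0.06, and 16 were above 0 and 8 below. The same median over all genes tested was 0.01, with 52.2% above 0. The 10 *Tomm* genes tested and the 14 *Timm* genes tested each had a median of 0.06. The members' median rested in part on Dhps flox replicate 1, without which it was 0.01, and it was 0.02 without Dhps cko replicate 1. The 95% confidence interval lay wholly within a 2-fold change in either direction for 21 of 24 members, and within a 1.5-fold change for 16. The exceptions to the wider bound were *Tomm6*, *Tomm6os* and *Timm10*.

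**Figure D1:**
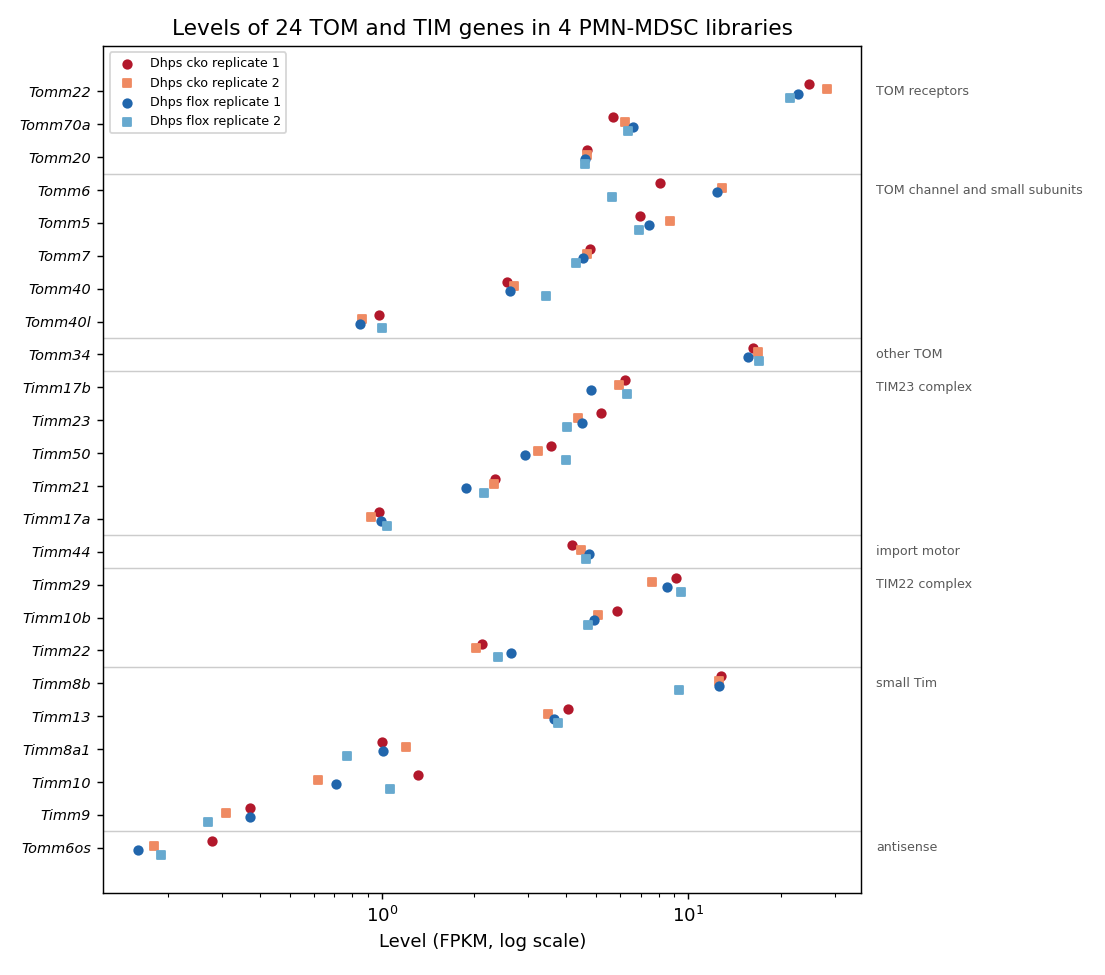
Level of each tested TOM and TIM gene in FPKM (log scale) in the 4 libraries, grouped by role, with one point per library. The points of the genotypes lie among each other for most genes, and *Tomm22*, at 21.40 to 28.25 FPKM, stands above all other members.

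Steady-state levels of the members spanned a wide range. *Tomm22* was the most abundant, above 90.9% of all genes tested by its mean level, and *Tomm34* came next, above 86.4%. The median member had a mean of 4.51 FPKM (all genes tested, 1.83 FPKM). At the other end were *Tomm6os*, at the 13.2 percentile of all genes tested, and *Timm9*, the lowest of the protein-coding members tested, at the 22.2 percentile. *Tomm20l*, a relative of *Tomm20*, and *Timm8a2*, a relative of *Timm8a1*, were listed at 0 in all 4 libraries and were not tested.

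Among the surface receptors, *Tomm22*, the central receptor that also organizes the TOM complex, was at 24.79 and 28.25 FPKM in Dhps cko and at 22.79 and 21.40 FPKM in Dhps flox. Both Dhps cko libraries were above both Dhps flox libraries. The log2 fold change was 0.26 (SE 0.09, 95% confidence interval 0.04 to 0.48), with an unadjusted p of 0.030 and an adjusted p of 0.65 in limma. *Tomm22* lies at chr15:79670861-79673400 on the plus strand of GRCm38 and had no near-identical copy elsewhere in the annotation. The unadjusted call was lost without Dhps cko replicate 2 (log2 fold change 0.17), Dhps flox replicate 1 (0.31) or Dhps flox replicate 2 (0.21), and was kept without Dhps cko replicate 1 (0.35). Each of these fits sets 1 library against 2, takes the spread from the genotype that keeps 2 libraries and from the trend over all genes, and assumes that the lone library varies alike. It was also lost, with the log2 fold change about the same, without the mean-variance trend (0.26), after quantile normalization (0.23) and with the replicate number as a block (0.26). *Tomm20*, the receptor for presequences, was at 4.68 and 4.67 FPKM against 4.61 and 4.6 FPKM. These 4 values were almost the same, although the groups did not overlap (log2 fold change 0.02, SE 0.09), and on the TPM scale, in which each library is scaled to the same sum, the sign turned (-0.01). *Tomm70a*, the receptor that binds chaperone-delivered carrier precursors, was at 5.68 and 6.22 FPKM in Dhps cko and at 6.61 and 6.37 FPKM in Dhps flox, so that it lay lower in both Dhps cko libraries (log2 fold change -0.12, SE 0.09, adjusted p = 0.82 in limma).

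*Tomm40*, which forms the pore itself, was at 2.56 and 2.69 FPKM in Dhps cko and at 2.61 and 3.42 FPKM in Dhps flox. Dhps flox replicate 2 stood apart, and without it the log2 fold change moved from -0.18 (SE 0.16) to 0.01. *Tomm40l*, its paralog, was at 0.98 and 0.86 FPKM against 0.85 and 1.00 FPKM, and made up 22.6% to 27.7% of the summed FPKM of the pair. Most of its exon length (64.3%) lies opposite *Nr1i3*, which was at 0.06 to 0.11 FPKM, and the strand setting of the counting was not given in the sources used here. The small subunits *Tomm5*, *Tomm6* and *Tomm7* surround the pore and stabilize the complex. *Tomm7* was at 4.76 and 4.66 FPKM against 4.52 and 4.30 FPKM, higher in both Dhps cko libraries (log2 fold change 0.09, SE 0.09). *Tomm5* was at 6.94 and 8.71 FPKM against 7.43 and 6.90 FPKM, and its groups overlapped. *Tomm6* was at 8.08 and 12.88 FPKM in Dhps cko and at 12.39 and 5.64 FPKM in Dhps flox, the widest spread among the well-expressed members. Within each genotype its libraries differed by more than the means did, and its interval ran from -0.80 to 1.36 around a log2 fold change of 0.28. *Tomm34*, a cytosolic cochaperone of precursors that is not a part of the complex, was nearly level at 16.20 and 16.92 FPKM in Dhps cko and 15.62 and 16.94 FPKM in Dhps flox.

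In the presequence pathway, *Timm23*, which forms the core of the TIM23 complex with a Tim17 subunit, was at 5.17 and 4.37 FPKM in Dhps cko and at 4.48 and 4.02 FPKM in Dhps flox. The groups overlapped, with a log2 fold change of 0.16 (SE 0.13) that was 0.04 without Dhps cko replicate 1, 0.08 without Dhps flox replicate 2 and 0.28 without Dhps cko replicate 2. The mouse has both *Timm17a* and *Timm17b*, and the latter was the more abundant here in every library. *Timm17b* was at 6.22 and 5.95 FPKM against 4.80 and 6.28 FPKM, whereas *Timm17a* was at 0.98 and 0.92 FPKM against 0.99 and 1.04 FPKM. *Timm17b* thus made up 86.4% and 86.6% of the pair in Dhps cko and 82.9% and 85.8% in Dhps flox. *Timm50*, the receptor that takes presequences from the TOM exit, was at 3.56 and 3.22 FPKM against 2.92 and 3.98 FPKM, with the Dhps flox libraries on either side of the Dhps cko libraries. *Timm21*, which links TIM23 to TOM and to the respiratory chain, was at 2.33 and 2.32 FPKM against 1.88 and 2.15 FPKM. It was higher in both Dhps cko libraries, by 0.20 on the log2 scale (SE 0.14, adjusted p = 0.81 in limma). *Timm44*, which tethers the matrix Hsp70 motor to the channel, was at 4.17 and 4.45 FPKM against 4.74 and 4.64 FPKM and lay lower in both (log2 fold change -0.12, SE 0.10).

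The carrier pathway held the member with the lowest log2 fold change. *Timm22*, the channel that inserts metabolite carriers into the inner membrane, was at 2.12 and 2.03 FPKM in Dhps cko and at 2.63 and 2.40 FPKM in Dhps flox. Both Dhps cko libraries were below both Dhps flox libraries, and the log2 fold change of -0.26 (SE 0.13, 95% confidence interval -0.60 to 0.07) had an unadjusted p of 0.095 and an adjusted p of 0.77 in limma. *Timm22* lies at chr11:76406952-76416292 on the plus strand of GRCm38. Over the 13 alternative analyses its log2 fold change stayed between -0.33 and -0.19. *Timm29*, a subunit that stabilizes TIM22, was at 9.09 and 7.62 FPKM against 8.49 and 9.45 FPKM, with overlapping groups. *Timm10b*, which docks the small Tim chaperones onto TIM22, was at 5.85 and 5.05 FPKM against 4.93 and 4.71 FPKM, higher in both Dhps cko libraries by 0.17 on the log2 scale (SE 0.11). This value was 0.07 without Dhps cko replicate 1 and 0.27 without Dhps cko replicate 2.

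**Figure D2:**
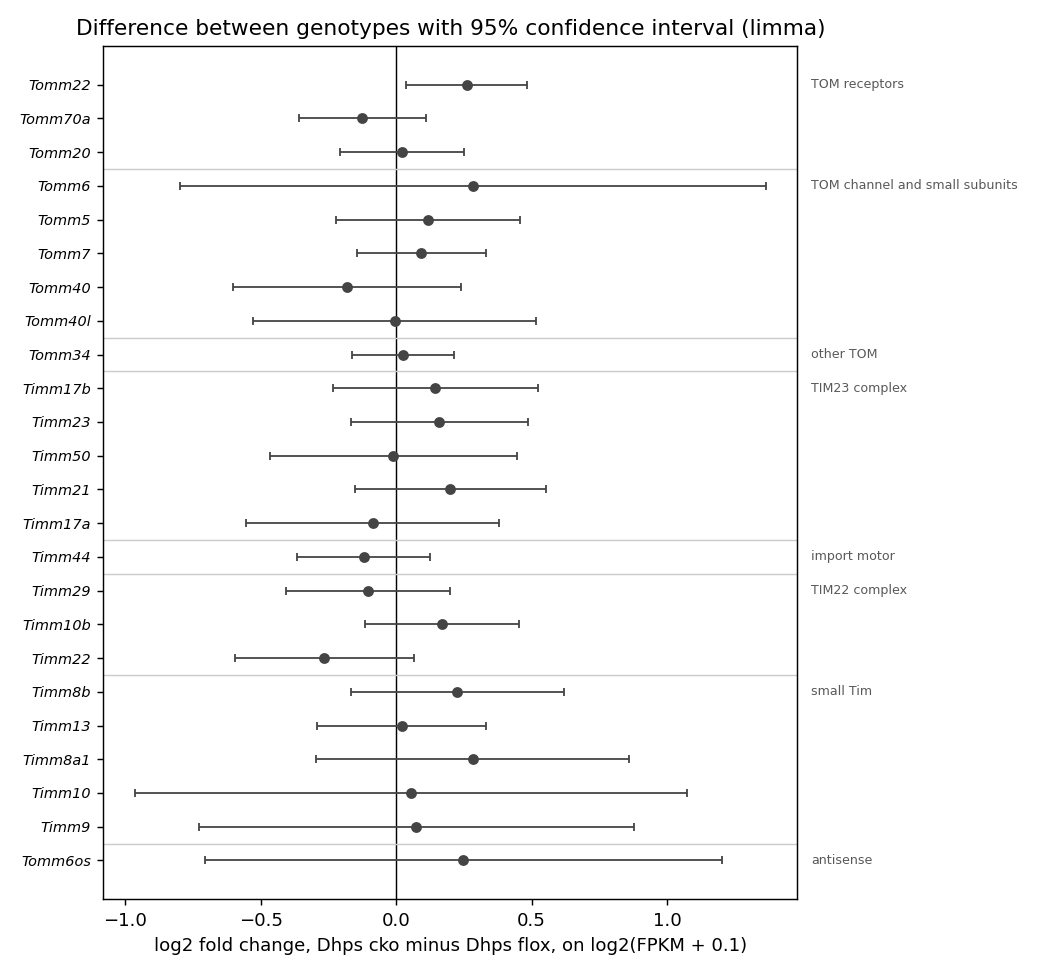
Log2 fold change (Dhps cko minus Dhps flox, on log2(FPKM + 0.1)) of each tested TOM and TIM gene from limma, with bars for the 95% confidence interval, grouped by role. The interval of *Tomm22* (0.04 to 0.48) is the one that leaves out 0, and those of *Tomm6*, *Timm10* and *Tomm6os* are the widest.

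Small Tim proteins work as hexamers that keep hydrophobic precursors soluble in the intermembrane space, with *Timm9* and *Timm10* forming one kind and *Timm8a1* or *Timm8b* with *Timm13* another. *Timm8b* was at 12.80 and 12.60 FPKM in Dhps cko and at 12.62 and 9.31 FPKM in Dhps flox, so that a single Dhps flox library was low. Its log2 fold change of 0.23 (SE 0.15) was 0.01 without Dhps flox replicate 2 and 0.44 without Dhps flox replicate 1. *Timm8a1* was at 1.00 and 1.20 FPKM against 1.01 and 0.77 FPKM, and *Timm8b* exceeded it by 10.5 to 12.8 times. *Timm13* was at 4.06 and 3.47 FPKM against 3.64 and 3.76 FPKM, with no separation of the groups. The partners of the essential hexamer were both low. *Timm10* was at 1.31 and 0.62 FPKM against 0.71 and 1.06 FPKM, and *Timm9* was at 0.37 and 0.31 FPKM against 0.37 and 0.27 FPKM. At the approximate depth these levels correspond to about 19.8 fragments per library for *Timm10* and 26.4 for *Timm9*, for which counting alone gives a coefficient of variation of 22.5% and 19.5% (2.90% for *Tomm22*). Their 95% confidence intervals, -0.96 to 1.07 for *Timm10* and -0.73 to 0.88 for *Timm9* on the log2 scale, take in differences of the size seen for *Tomm22* in either direction. The antisense transcript *Tomm6os* was at 0.28 and 0.18 FPKM against 0.16 and 0.19 FPKM, from about 18.6 fragments per library.

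For 9 of the 24 members (37.5%) the genotypes did not overlap, where 36.0% of all genes tested did not overlap. Of these, 5 were higher in Dhps cko (*Tomm22*, *Tomm20*, *Tomm7*, *Timm21* and *Timm10b*; background 20.0%) and 4 were lower (*Tomm70a*, *Timm17a*, *Timm44* and *Timm22*; background 16.0%). The members' share was thus close to that of the transcriptome. The difference between genotype means was larger than the larger difference between replicates in 7 of 24 members (29.2%), against 24.8% of all genes tested. Its median was 0.12 on the log2 scale, and the median of the larger replicate difference was 0.23. With 2 libraries against 2, an exact two-sided permutation test cannot give a p below 0.33, so none was run on single genes.

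**Figure D3:**
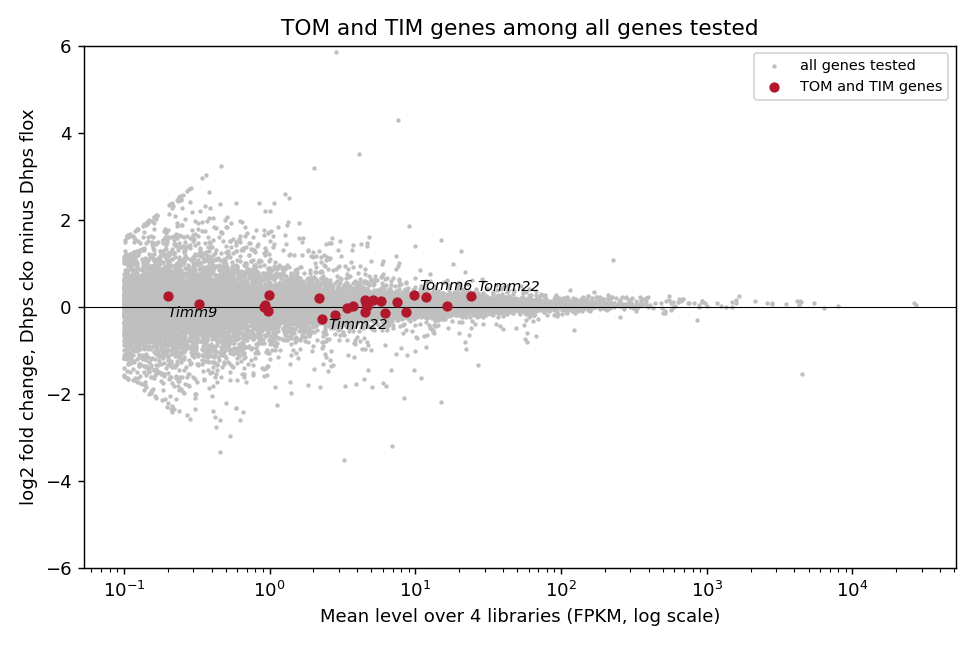
Log2 fold change (Dhps cko minus Dhps flox) against mean level in FPKM (log scale) for all 17953 genes tested (grey) and the 24 TOM and TIM genes tested (red). The members lie between -0.26 and 0.28, inside the cloud of other genes at the same level.

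Taken as a sum, the 26 genes reached 134 and 140.2 FPKM in Dhps cko and 132 and 125 FPKM in Dhps flox. Both Dhps cko sums were higher, and their mean was 107% of the Dhps flox mean (105% on the TPM scale, where the groups again did not overlap). *Tomm22* supplied between 17.2% and 20.2% of the sum. Without it the libraries stood at 109.19 and 111.92 FPKM against 109.01 and 103.20 FPKM, narrowly without overlap. Without *Tomm6* they stood at 125.90 and 127.29 FPKM against 119.41 and 118.96 FPKM. For the *Tomm* genes alone the groups overlapped, at 74.95 and 86.0 FPKM against 77.6 and 70.8 FPKM. For the *Timm* genes they overlapped as well, at 59.0 and 54.1 FPKM against 54.2 and 53.8 FPKM. By role, the receptors summed to 35.2 and 39.1 FPKM in Dhps cko and 34.0 and 32.4 FPKM in Dhps flox, without overlap and led by *Tomm22*. Sums for the channel with the small TOM subunits, for TIM23, for TIM22 and for the small Tim genes overlapped between genotypes. Relative to other members, *Tomm22* was 9.68 and 10.5 times the level of *Tomm40* in Dhps cko and 8.73 and 6.26 times in Dhps flox. Its ratio to *Timm22* was 11.7 and 13.9 in Dhps cko and 8.67 and 8.92 in Dhps flox. These ratios combine genes chosen for having the lowest unadjusted p or a low value in the same data, and they are given as a description.

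Several members share sequence with other listed genes, between which the counting could have divided fragments, and their own values are uncertain for that reason. *Timm23*, at chr14:32180162-32201898 on the minus strand of GRCm38, matched 6 genes elsewhere over at least 150 bases at 95% identity or more. Listed among the measured genes were 5 of them (*Gm10171*, *Gm10273*, *Gm10233*, *Gm16209* and *Gm7493*). The closest over most of its length was *Gm10273*, with 99.9% identity over 1121 bases, and it was at 3.59 and 4.05 FPKM in Dhps cko and 3.22 and 2.81 FPKM in Dhps flox. *Gm10171*, a processed pseudogene with 100% identity over 628 bases, was at 3.74 and 4.13 FPKM against 3.24 and 3.26 FPKM. The 5 copies together reached 12.0 and 13.1 FPKM in Dhps cko and 10.7 and 10.0 FPKM in Dhps flox, more than *Timm23* itself in every library. With *Timm23* added, the sum was 17.1 and 17.5 FPKM against 15.2 and 14.1 FPKM. For that sum the genotypes did not overlap, at 118% of the Dhps flox mean, whereas they overlapped for *Timm23* alone. Among all single genes tested, 36.0% did not overlap. Weighted by transcript length, which follows fragments, the sums were 15.4 and 15.4 against 13.6 and 12.4 FPKM times kilobases, again without overlap.

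A second case was *Tomm6*, at chr17:47686646-47688386 on the minus strand of GRCm38. It shares 76.0% of its exon length, on the same strand, with the overlapping model *Gm21981*, which was at 5.38 and 3.12 FPKM in Dhps cko and 1.11 and 4.30 FPKM in Dhps flox. Within each genotype the library with more *Tomm6* had less *Gm21981*. The summed FPKM of the pair were 13.46 and 16.0 in Dhps cko and 13.50 and 9.94 in Dhps flox, and these overlapped. Weighted by length in the same way, the sums were 20.7 and 18.1 against 12.3 and 15.9 FPKM times kilobases, and these did not overlap. That weighting counts the whole length of *Gm21981*, of whose exons 859 bases overlap those of *Tomm6*. The weighted sum thus also holds *Gm21981* fragments from outside *Tomm6* and is not a value of *Tomm6* alone. The wide spread of *Tomm6* was hence accompanied by an opposite spread of its overlapping partner. *Tomm20* shares 435 bases at 99.5% identity with the pseudogene *Gm14494*, at 2.83 and 3.56 FPKM against 3.25 and 4.23 FPKM, and the genotypes overlapped for the sum of the pair. *Timm8a1* shares 612 identical bases with *Gm9797*, at 0.65 and 1.27 FPKM against 0.75 and 0.61 FPKM, where the sum overlapped too. *Timm17a* and *Tomm7* matched 1 and 2 pseudogenes, and *Timm8b* shares 15.6% of its exon length with *Nkapd1* on the opposite strand.

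**Figure D4:**
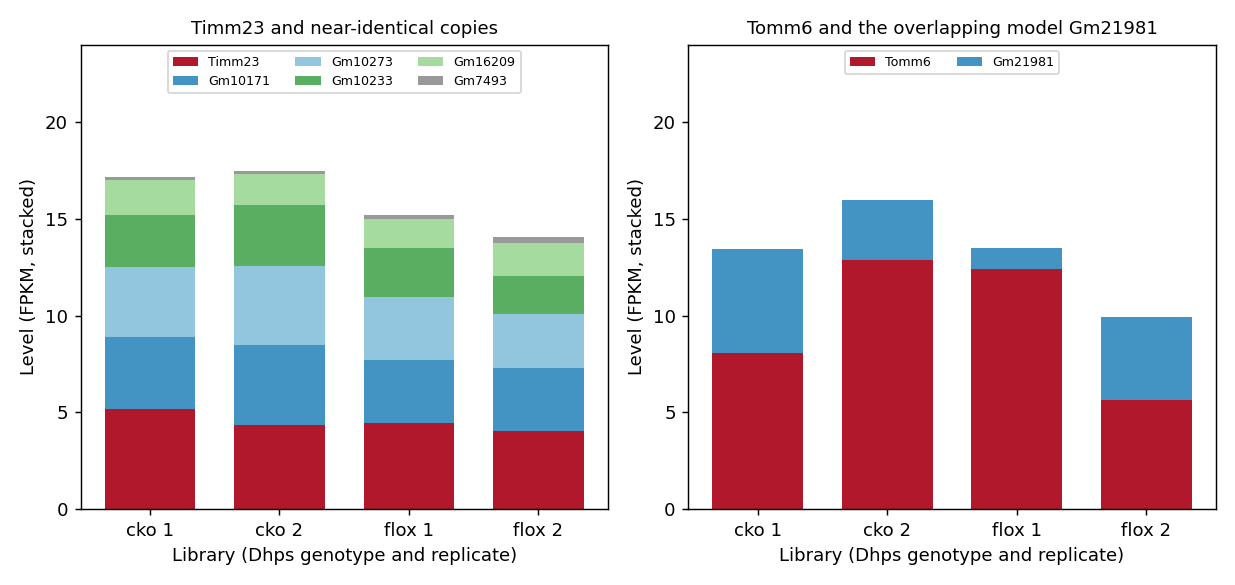
Stacked FPKM in each library for *Timm23* with its 5 listed near-identical copies (left) and for *Tomm6* with the overlapping model *Gm21981* (right). The *Timm23* stacks are higher in both Dhps cko libraries (17.1 and 17.5 against 15.2 and 14.1), and the *Tomm6* and *Gm21981* parts vary in opposite directions within each genotype.

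Promoters of nuclear genes for mitochondrial proteins are known for sites of the ETS family member GABP (NRF-2) and of NRF-1, and the start regions of the members were therefore searched. A RefSeq promoter (GRCm38.p6, 250 bases before to 50 after the start) was found for 23 of the 26 genes. The ETS motif CCGGAAG, on either strand, occurred in 9 of 23 (39.1%), against 9.93% of all 27025 gene symbols with a promoter. Among genes tested it was in 8 of 21 members (38.1%) and in 19.4% of 10687 symbols. The following stretches, 5′ to 3′ on the strand of the gene with the motif or its reverse complement CTTCCGG in capitals, are shown because they cover each role that had a match; in *Tomm22* both orientations overlap in a palindrome.
Tomm22 (chr15:79670810-79670838, plus strand): agcccggctcgCTTCCGGAAGacgctctg
Tomm34 (chr2:164071094-164071122, minus strand): cgcagccctagCTTCCGGgtggaagctgt
Timm8b (chr9:50603878-50603906, plus strand): tgaagcgtgaaCCGGAAGgcaggagacgg
Timm29 (chr9:21592499-21592527, plus strand): agctctgaccaCTTCCGGgctccactcac
Tomm70a (chr16:57121695-57121723, plus strand): catgccccgggCTTCCGGtgacctctggc
Timm23 (chr14:32201921-32201949, minus strand): cgcgcttcccaCTTCCGGgccgcacacag

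The first base of the motif lay 47 bases before the start in *Tomm22* and *Timm23*, 12 before it in *Timm8b*, 8 in *Tomm70a* and 212 in *Timm29*. *Tomm34* has 2 RefSeq starts, and the site printed lay 9 bases before the more downstream of them, with another site 39 bases before the other start. The others with a match were *Timm10*, *Timm10b* and *Timm8a2*, the last of which was listed at 0. The 8 tested members with the motif had a median level of 7.44 FPKM (range 0.93 to 24.3) and the 13 without it 3.42 FPKM (range 0.20 to 9.75), so that the ranges overlapped widely. Their median log2 fold changes were 0.11 and 0.02, and *Tomm22* and *Tomm70a*, both with the motif, lay on opposite sides of 0. The NRF-1 consensus was in 2 of 23 (*Timm8b* and *Tomm20*; 8.70% against 5.19% of all symbols, and 9.52% against 10.8% among genes tested), and the YY1 motif AAGATGGC in 1 (*Timm50*; 4.35% against 3.19%, and 4.76% against 5.15% among genes tested). CCAAT was in 7 (30.4% against 41.1%, and 28.6% against 42.7% among genes tested) and TATAAA in 2 (*Timm13* and *Tomm5*; 8.70% against 15.7%, and 9.52% against 9.72% among genes tested), each searched on both strands. Such matches are descriptions of letters and not of bound factors.

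Starts of 10 members lay within 1000 bases of the start of a gene on the opposite strand. Some pairs pointed away from each other without overlap, namely *Timm23* at 51 bases from *Parg*, *Timm17b* at 88 from *Pqbp1*, *Timm8b* at 98 from the succinate dehydrogenase subunit *Sdhd*, *Timm9* at 164 from *2700049A03Rik* and *Tomm6* at 644 from *Frs3*. In the other pairs the starts overlapped, by 106 bases for *Timm29* and *Yipf2*, 360 for *Timm10b* and *Arfip2*, 422 for *Tomm40* and the antisense gene *Gm20512*, 776 for *Tomm6* and *Tomm6os* and 847 for *Tomm34* and *Stk4*. *Timm17b* and *Timm8a1* are on the X chromosome. Of the 5 sex-linked genes examined, *Xist* was higher in Dhps cko and 4 of 4 Y-linked genes were lower, each at an unadjusted p under 0.05 in limma (4.72% of all genes tested were higher and 2.28% lower). The median log2 fold change of the 5 was -1.07. These genes thus differed along with genotype, and the part of sex in the values of *Timm17b*, *Timm8a1* or any other member was not tested.

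Other genes of the import pathway, 41 listed by role, were also without an adjusted call. Tested were 40 of them, of which 0 passed the adjusted threshold in limma, 1 passed at an unadjusted p under 0.05 (7.0% of all genes tested) and 21 had a log2 fold change above 0 (52.2% of all genes tested), with a median of 0.01. The genotypes did not overlap for 9 of 40 (22.5%, against 36.0% of all genes tested). The gene with the unadjusted call was *Hscb*, a cochaperone of iron-sulfur cluster transfer, at 1.94 and 2.12 FPKM in Dhps cko and 1.58 and 1.28 FPKM in Dhps flox. It was higher in both Dhps cko libraries, with a log2 fold change of 0.48 (SE 0.17, unadjusted p = 0.036, adjusted p = 0.68 in limma). Of those averaging 1 FPKM or more, the next highest were *Cox18*, an inner-membrane insertase (0.30, SE 0.25), and *Romo1*, a TIM23-associated protein (0.26, SE 0.22), and both had overlapping groups. The lowest were *Clpp*, the matrix protease (-0.22, SE 0.32), *Dnaja3*, a matrix Hsp40 (-0.14, SE 0.17), and *Timmdc1*, a complex I assembly factor related to Tim17 (-0.12, SE 0.11). For *Timmdc1* the Dhps cko libraries, at 3.03 and 3.36 FPKM, were below those of Dhps flox, at 3.41 and 3.52 FPKM. *Hspa9*, the Hsp70 of the import motor, was nearly level at 8.0 and 8.33 FPKM against 7.70 and 8.47 FPKM.

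For comparison with other nuclear-encoded mitochondrial genes, the 78 genes of mitochondrial ribosomal proteins gave a median of 0.08 for the log2 fold change (57 above 0), and the 48 *Nduf* genes of complex I had a median of 0.11, with 40 above 0. Neither list had an adjusted call in limma, and 4 ribosomal protein genes and 7 *Nduf* genes were higher, with 1 *Nduf* gene lower, at an unadjusted p under 0.05. Over all genes tested, 4.72% were higher and 2.28% lower at that threshold, and 52.2% had a log2 fold change above 0. The difference of these medians from that of the TOM and TIM genes was not tested. Fold changes of all genes moved with transcript length, since among the genes averaging 1 FPKM or more, split into 5 bins by length, the shortest bin had the highest median and the longest the lowest. From the shortest to the longest bin, the medians over all genes were 0.10, 0.06, 0.02, -0.01 and -0.06, and those of the 6, 4, 5, 1 and 2 members in them were 0.14, -0.06, 0.03, 0.17 and -0.05. With 1 to 6 members in a bin, no order of the members' medians with length can be read from them. The part of length in the members' values was not tested.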

How the data were processed

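RNA of the 4 libraries was sequenced by the authors on an Illumina instrument. Reads were filtered with Cutadapt, aligned with HISAT2 (mm10 per the labels) and quantified with StringTie and ballgown, and the deposited values were FPKM per gene. Annotation, strand setting and scaling between libraries were not given in the sources used here. Symbols are those of the deposited files, and 28511 of 28585 identifiers were in GENCODE M21 (GRCm38), from which coordinates, lengths and overlaps were taken.

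Here log2(FPKM + 0.1) was fitted, where a gene averaged 0.1 FPKM or more, with limma 3.58.1 in R 4.3.3 (mean-variance trend, no replicate block, Benjamini-Hochberg adjustment over all 17953 genes, threshold 0.05), after the steps had been tested on simulated data. All members are named, with *Dhps*, the import genes with an unadjusted p under 0.05 and the 3 highest and 3 lowest of those averaging 1 FPKM or more. *Hspa9* was added after its values were seen. Members and lists were chosen with earlier results of these data known. Copies were sought with blastn 2.17.0. Depth was estimated from the steps of low values, of which 39.0% to 43.2% lay within 0.15 of a whole read (30% by chance), so that whole reads were not recovered. Fragments per member are therefore approximate and cover counting error only. They also rest on the length of the longest protein-coding transcript of each gene, or the longest of any type. For *Timm9* this was 2564 bases, from 11 annotated transcripts, and the transcripts behind the FPKM may differ.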

Additional observations from a re-analysis of the deposited data

How the results depend on the processing

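Over 13 alternative analyses, the count of members with an adjusted p under 0.05 was 0 in each, and the lowest adjusted p was 0.543 (limma). The count of all genes changed was 1 as reported. It was 0 with a pseudocount of 0.01, without a filter, with a replicate block and in each analysis without 1 library (0 to 0), 4 with a mean of at least 1 FPKM, 2 on the TPM scale and 2 after quantile normalization. Genes with an unadjusted p under 0.05 numbered 1257, or 819 with a mean of at least 1 FPKM and 723 to 1608 without 1 library. Members with an unadjusted p under 0.05 numbered 1, or 0 after quantile normalization, without the mean-variance trend and with the replicate block, and 0 to 1 without 1 library. Without Dhps flox replicate 1 that gene was *Timm8b*, and without Dhps flox replicate 2 it was *Timm17b*. In such fits the lone library is assumed to vary like the other genotype, so that the difference between the Dhps flox replicates of both genes (0.43 and 0.38 on the log2 scale) did not enter the spread. The members' median log2 fold change was 0.065 as reported, 0.034 with a pseudocount of 1, 0.043 on the TPM scale and 0.010 to 0.094 without 1 library. A pseudocount of 1 brought values of low members nearer to 0, such as *Tomm6os* (0.065), *Timm9* (0.022), *Timm8a1* (0.15) and *Timm17a* (-0.047). On the TPM scale the sign turned for *Tomm34* (-0.0067), *Timm13* (-0.011) and *Tomm20* (-0.010). Without 1 library it also turned for *Tomm40* (-0.37 to 0.0076), *Timm50* (-0.23 to 0.21), *Tomm40l* (-0.11 to 0.10), *Tomm34* (-0.033 to 0.083), *Timm13* (-0.090 to 0.13), *Timm9* (-0.099 to 0.25), *Timm10* (-0.43 to 0.54), *Timm17b* (-0.045 to 0.34), *Tomm6* (-0.28 to 0.84), *Timm29* (-0.23 to 0.021) and *Tomm5* (-0.044 to 0.28). The remaining members did not change sign under any alternative that tested them, but without 1 library the value moved by over 1.5 times for *Timm23* (0.041 to 0.28), *Timm10b* (0.066 to 0.27), *Timm8b* (0.0090 to 0.44), *Timm8a1* (0.11 to 0.46), *Timm21* (0.11 to 0.29), *Timm17a* (-0.13 to -0.046), *Timm44* (-0.17 to -0.074), *Tomm70a* (-0.19 to -0.060), *Tomm7* (0.058 to 0.13), *Tomm6os* (0.028 to 0.47) and *Tomm22* (0.17 to 0.35). The labels do not say whether equal replicate numbers pair libraries. The correlation of their deviations was -0.0061 over 17953 genes, which cannot settle it. The cause of these changes was not tested. The 6 members below 1 FPKM were left out by the higher filter. Read counts were not recovered, and the widest intervals were those of *Tomm6*, *Timm10* and *Tomm6os*.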
